A study of Bos taurus with 4 samples.

Results

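The genes described here encode tubulins, the building blocks of microtubules, and the kinesin and dynein motors that move along them. They were taken as all array probes whose platform gene symbol starts with TUBA, TUBB, TUBG, TUBGCP, KIF followed by a digit, KLC, DYNC, DYNL or DCTN. The rule gave 97 probes for 74 genes, of 43794 probes on the array and 15229 gene symbols. Of these, 26 probes (23 genes) were for tubulins and the gamma-tubulin complex, 42 probes (35 genes) for kinesins and 29 probes (16 genes) for dyneins and dynactin. The rule reads gene symbols and no measured value, though the set was proposed with earlier results of these data known.

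Expression was measured in pools of early blastocysts collected 168 h after fertilization in vitro. The oocytes came from 4 Holstein heifers, each collected at 8 months and again at 14 months of age, around puberty, and all were fertilized with semen of 1 bull. At both ages the heifers had received progesterone and 6 injections of 30 mg FSH (follicle-stimulating hormone) before ovum pickup. Each of the 4 arrays carried both ages of 1 heifer, in Cy5 and Cy3. In heifers 1 and 2 the embryos of the 8-month collection were in Cy5, and in heifers 3 and 4 they were in Cy3. Every value below is therefore a log2 ratio of 8 over 14 months within an animal, positive where the signal was higher at 8 months. In each heifer the 8-month collection came first, so donor age and the order of the collections cannot be told apart. The sources used here do not give the number of embryos in a pool, and in a pool fewer cells of a type and less RNA per cell cannot be told apart.

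Alpha- and beta-tubulin form the dimers from which microtubules grow, and gamma-tubulin with the GCP proteins forms the ring from which growth starts. Kinesins mostly walk toward the plus end of the microtubule; some carry cargo, and others build the mitotic spindle or help separate the daughter cells. Cytoplasmic dynein, with its activator dynactin, is the main motor toward the minus end and carries vesicles, holds spindle poles and positions nuclei. In a blastocyst all 3 are at work in rapid cell division and in the polarised transport of the outer epithelium, the trophectoderm.

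A probe was tested if 3 or more of the 4 samples of either age gave a signal above the negative controls. Of the 97 member probes, 64 were tested, for 56 of the 74 genes, and 17 probes were above background in 0 of 8 samples. All 7 genes of the gamma-tubulin complex were tested, 8 of 9 alpha-tubulins (not TUBA1B) and 5 of 7 beta-tubulins (not TUBB1 or TUBB4). Among the kinesin heavy chains 21 of 31 were tested. The 10 others were KIF1A, KIF2B, KIF5A, KIF5C, KIF7, KIF9, KIF13B, KIF16B, KIF17 and KIF25. Both KLC1 and KLC2 were tested and KLC3 and KLC4 were not. For dynein 8 of 10 genes were tested (not DYNC1I1 or DYNLRB2) and for dynactin 5 of 6 (not DCTN4). No member probe was saturated. Probes not above background have only a bound and do not show that a gene is silent.

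Over the whole array, 43.3% to 51.1% of probes were above background in Cy3 and 26.9% to 41.0% in Cy5. Of the 97 member probes, 59 to 66 were above background in the 8-month samples and 54 to 75 in the 14-month samples. All 10 blastocyst markers were tested, and 7 lay above 0 and 3 below. Of the 10, 2 rose at 8 months, the trophectoderm factors GATA2 (0.61 ± 0.09, SE) and TEAD4 (0.56 ± 0.10), beside 1.7% of all genes. The 3 below 0 were FGFR2 (-0.30 ± 0.10), the trophectoderm keratin KRT8 (-0.30 ± 0.11) and GATA3 (-0.08 ± 0.10), which did not pass. Oocyte markers were tested for 3 of 8 genes (log2 ratios of -0.15 to 0.20), cumulus and granulosa markers for 4 of 8 (-0.70 to 0.25), sperm markers for 3 of 8 (TNP1 at -0.20 and TNP2 at -0.03) and blood markers for 3 of 4 (0.00 to 0.31), and 0 of these 13 genes passed (0, 2, 1 and 1 probes at an unadjusted p under 0.05). The sperm marker PRM1 was over background in 0 of the 4 8-month samples and 3 of the 4 14-month samples. Its ratios were -0.43, -0.55, -0.265 and 0.02 in heifers 1 to 4 (limma, adjusted p = 0.118 over probes). With the 8-month signal raised to the weakest detected signal, its mean over the 4 arrays was 1.13-fold lower at 8 months. This bound concerns the measured means only, with no error attached. HSD3B1, a steroid enzyme listed here with the granulosa markers, was at -1.13, 0.56, -1.15 and -1.10 in heifers 1 to 4. It was above background in 4 of the 4 samples of each age. Of the same list, INHBA and SERPINE2 were also above background in 4 of the 4 samples of each age. The brighter tested probe of CYP19A1 was above it in 2 of the 4 8-month samples and 4 of the 4 14-month samples. FSHR, AMH, INHA and TNFAIP6 were above background in 0 samples. The cell source of HSD3B1 was not tested. Of 7 listed markers of ciliated epithelium, which is rich in tubulin and dynein, 6 had a probe and 0 were tested. The part of other cells in the values below was not tested.

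Few genes of the microtubule system were called different between the ages, which does not show that the others were unchanged. The median size of the log2 ratio, without its sign, was 0.163 over the member genes and 0.156 over all genes. Among the 64 member probes, 3 passed the test (limma, adjusted p under 0.05 over 17685 probes), 1 higher and 2 lower at 8 months. Over all probes 1.88% passed, 0.554% higher and 1.32% lower. With 1 probe a gene, 5 of the 56 member genes passed: TUBB3 and KIF1C rose at 8 months, and TUBA3E, TUBA1D and KIF20A fell. Over all 8398 genes 4.5% passed, 1.7% higher and 2.8% lower, and counts of 3 and 5 are too small to set the members apart from other genes. At an unadjusted p under 0.05 there were 19 of 64 member probes, beside 26.5% of all probes. The ratios of each array were normalized by loess, which removes a trend of the ratio with brightness. Centring each array on its median instead, which put the median of all genes at -0.18, gave 0 member genes higher and 20 lower, with 2078 of all 8398 genes past the threshold.

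The median log2 ratio was -0.02 over the 56 member genes and 0.00 over all genes. By family it was -0.01 for the 20 tubulin genes (range -0.64 to 0.69), -0.12 for the 23 kinesin genes (-0.56 to 0.51) and 0.00 for the 13 dynein and dynactin genes (-0.42 to 0.34). Of the 3 families, the kinesins were the one whose median lay below 0 in all 4 heifers (-0.10, -0.22, -0.13 and -0.03). This was not particular to them. Among the lists described below, it also held for the dynein adaptors (-0.06, -0.09, -0.05 and -0.03). It held too for the genes that recruit the gamma-tubulin ring (-0.01, -0.14, -0.09 and -0.02) and the microtubule-associated and plus-end proteins (-0.01, -0.05, -0.14 and -0.07). The median of all genes lay close to 0 in each heifer (-0.0006, -0.013, -0.013 and -0.0096). The tubulin medians were -0.02, -0.07, -0.07 and 0.00, and those of dynein and dynactin -0.16, -0.13, 0.05 and -0.10. The kinesin median was -0.05 without heifer 2 and with mean pixel intensities, -0.07 with no filter on dim probes and -0.21 under median centring. The ratio had 1 sign in all 4 heifers in 19 of 56 member genes (5 higher, 14 lower). Over all 8398 genes this held for 27.6% (1037 higher, 1278 lower). The median SD over the 4 heifers was 0.21 for the members and 0.25 for all genes.

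**Figure D1:**
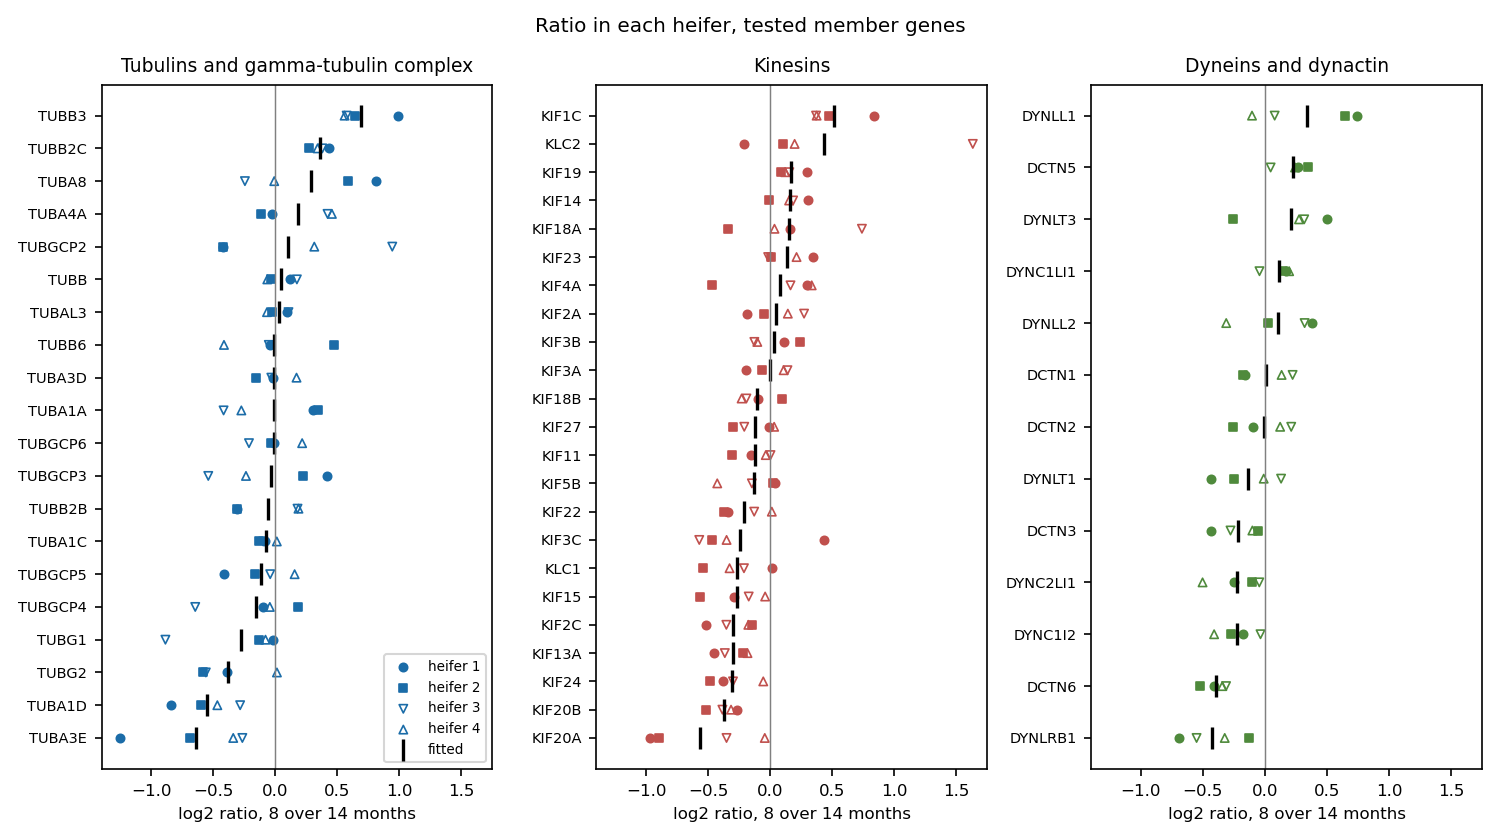
Log2 ratio of 8 over 14 months for each of the 56 tested member genes, by family. Each mark is 1 heifer (filled, 8 months in Cy5; open, 8 months in Cy3) and the black bar is the fitted ratio; TUBB3 and KIF1C lie right of 0 in all 4 heifers, and TUBA3E, TUBA1D and KIF20A left of it in all 4.

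TUBB3, the beta-tubulin best known from neurons, was the member with the greatest increase. Its normalized log2 intensity at 8 months was 12.87, 12.59, 13.39 and 12.46 in heifers 1 to 4, and at 14 months 11.87, 11.94, 12.81 and 11.91. The signal was higher at 8 months in each heifer, while the ranges of the 2 ages overlapped because heifer 3 was bright at both. The ratios were 0.99, 0.65, 0.58 and 0.56, a fitted 0.69 ± 0.10 (SE) or 1.62-fold (adjusted p = 0.0449 over probes and 0.0313 over genes). The call was lost without heifer 1 (0.61, adjusted p = 0.227), heifer 2 (0.78, 0.117) or heifer 3 (0.69, 0.0578) and kept without heifer 4 (0.70, 0.0345). Over all genes, 0 passed without heifer 1, 0 without heifer 2, 2 without heifer 3 and 339 without heifer 4. Here and below, a call lost without heifer 1, 2 or 3 thus says little about the gene itself. With arrays centred on their median in place of loess, the ratio of TUBB3 was 0.33 (adjusted p = 0.0918).

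The other beta-tubulins did not pass. TUBB2C, now named TUBB4B and a widely expressed isotype, was higher at 8 months by a like amount in every heifer, 0.43, 0.27, 0.38 and 0.34. Its fitted ratio was 0.36 ± 0.09 (adjusted p = 0.0807 over probes, 0.0693 over genes), and 0.04 under median centring. Both probes of TUBB2B, a beta-tubulin of the developing nervous system, were measured in all samples and differed from each other. One gave 0.47, 0.32, 0.40 and 0.44 (fitted 0.41 ± 0.09, adjusted p = 0.0653), and the brighter one, which stands for the gene, -0.31, -0.31, 0.18 and 0.19 (-0.06 ± 0.09). TUBB itself, the common beta-tubulin, was at 0.05 ± 0.10 and TUBB6 at -0.01 ± 0.12. Of the 5 tested beta-tubulin genes, 1 thus rose, and the median was 0.05.

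TUBA3E and TUBA1D, both alpha-tubulins, fell at 8 months. The log2 intensity of TUBA3E was 11.91, 12.40, 11.97 and 12.04 at 8 months and 13.15, 13.09, 12.24 and 12.38 at 14 months. Each heifer had less signal at 8 months, and the ranges overlapped, since heifer 2 at 8 months was brighter than heifers 3 and 4 at 14 months. Its ratios of -1.25, -0.69, -0.27 and -0.34 gave a fitted -0.64 ± 0.12, or 1.55-fold lower (adjusted p = 0.0355 over genes and 0.05001 over probes, so it passed among genes only). TUBA1D gave a dimmer signal of 7.75, 7.92, 7.98 and 7.61 at 8 months against 8.59, 8.52, 8.26 and 8.08 at 14 months, and the ages did not overlap. Its ratios were -0.84, -0.60, -0.28 and -0.47, a fitted -0.55 ± 0.10 or 1.46-fold lower (adjusted p = 0.0497 over probes and 0.0358 over genes).

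Neither alpha-tubulin call was kept when a heifer was left out, though without heifer 1, 2 or 3 hardly any gene of the array passed. TUBA3E was at -0.50 without heifer 1, -0.78 without heifer 2, -0.65 without heifer 3 and -0.62 without heifer 4 (adjusted p = 0.0532 to 0.227). TUBA1D was at -0.49, -0.61, -0.59 and -0.50 in the same order (0.0609 to 0.233). Median centring gave -0.98 for TUBA3E (adjusted p = 0.000703), and mean in place of median pixel intensities gave -0.35 for TUBA1D (adjusted p = 0.0793).

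The 3 alpha-tubulins with the highest mean intensity did not pass. TUBA1C was at -0.08, -0.13, -0.10 and 0.01 in heifers 1 to 4, a fitted -0.07 ± 0.09 with a 95% interval of -0.29 to 0.14. TUBA3D was at -0.02, -0.16, -0.03 and 0.17 (-0.01 ± 0.10, interval -0.24 to 0.22). TUBA1A, the alpha-tubulin abundant in neurons, split by dye orientation, with 0.31 and 0.35 in heifers 1 and 2 and -0.42 and -0.27 in heifers 3 and 4 (-0.01 ± 0.09, interval -0.23 to 0.21). The sign of TUBA1A and TUBA3D turned under several settings, and median centring put TUBA1C, TUBA3D and TUBA1A at -0.49, -0.43 and -0.45, each past the threshold (adjusted p = 0.0173, 0.033 and 0.0271). Several alpha-tubulin genes are close copies of each other, so a probe may read more than 1 of them, and the probe sequences were not used here to test this.

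Further alpha-tubulins differed between heifers. TUBA8, a divergent isotype, was at 0.81 and 0.58 in heifers 1 and 2 and at -0.24 and -0.01 in heifers 3 and 4 (fitted 0.29 ± 0.10, adjusted p = 0.127 over genes). TUBA4A was at -0.03 and -0.11 in the first pair and 0.42 and 0.46 in the second (0.18 ± 0.09). In the gene order of the bovine RefSeq table TUBA4A is followed by TUBA1D, which fell in all 4 heifers, and TUBA1C by TUBA1A. TUBAL3, an alpha-like tubulin, was at 0.03 ± 0.09. Of the 8 tested alpha-tubulins 2 fell and 6 did not pass, with a median of -0.01.

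Gamma-tubulin and its complex, which start new microtubules at the centrosome, showed 0 genes that passed in limma's test, with 1 of 7 probes at an unadjusted p under 0.05. TUBG2 was at -0.39, -0.58, -0.56 and 0.01, lower at 8 months in heifers 1 to 3 (fitted -0.38 ± 0.12, adjusted p = 0.0972 over genes, -0.24 without heifer 3). TUBG1, its neighbour in the gene order, was at -0.01, -0.13, -0.89 and -0.08, so that heifer 3 stood apart (-0.28 ± 0.14, adjusted p = 0.228). TUBG1 and TUBG2 are close copies, and a probe may read both. The GCP proteins hold gamma-tubulin in the ring. TUBGCP2 was at -0.42 and -0.42 in heifers 1 and 2 and 0.94 and 0.31 in heifers 3 and 4. TUBGCP3, the partner of TUBGCP2 in the small gamma-tubulin complex, ran the other way, at 0.42 and 0.22, then -0.54 and -0.24. The fitted ratios were 0.10 ± 0.12 and -0.03 ± 0.10. TUBGCP4, TUBGCP5 and TUBGCP6 of the full ring were at -0.15 ± 0.13, -0.11 ± 0.10 and -0.01 ± 0.11. The median over the 7 genes was -0.11, with 1 above 0 and 6 below.

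KIF20A, the motor that carries the chromosomal passenger complex to the spindle midzone for cytokinesis, fell at 8 months. The log2 intensity was 11.50, 12.33, 12.82 and 12.78 at 8 months and 12.47, 13.23, 13.17 and 12.83 at 14 months. Heifer 1 was dimmest at both ages and the ranges overlapped. The ratios of -0.97, -0.90, -0.35 and -0.04 show a strong decrease in heifers 1 and 2, a smaller one in heifer 3 and hardly any in heifer 4. The fitted ratio was -0.56 ± 0.10, or 1.48-fold lower (adjusted p = 0.0493 over probes and 0.0351 over genes). KIF20A kept its call without heifer 4 (-0.64, adjusted p = 0.0345) and lost it without heifer 1 (-0.55, 0.227), heifer 2 (-0.58, 0.125) or heifer 3 (-0.49, 0.0909). Median centring gave -0.94 (adjusted p = 0.00074).

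KIF20B, a relative of KIF20A that also acts late in cell division, was lower in every heifer by a like amount, -0.27, -0.51, -0.38 and -0.31, and did not pass (fitted -0.37 ± 0.10, adjusted p = 0.0813 over probes and 0.0683 over genes). KIF2C, which takes microtubules apart at centromeres, was at -0.52, -0.14, -0.35 and -0.18 (-0.30 ± 0.11, adjusted p = 0.128 over genes). KIF15, a motor that helps hold the spindle bipolar, was at -0.29, -0.57, -0.17 and -0.04 (-0.27 ± 0.10, 0.143). All 3 genes lay below 0 in all 4 heifers. KIF11, the main motor that pushes spindle poles apart, was at -0.15, -0.31, 0.00 and -0.03, with a fitted -0.12 ± 0.09 and an interval of -0.34 to 0.10. KIF22, a motor on chromosome arms, was at -0.21 ± 0.09 and KIF18B, a plus-end depolymerase, at -0.10 ± 0.09.

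Other kinesins of division lay above 0. KIF23, a subunit of the centralspindlin complex of the midzone, was at 0.14 ± 0.11, and KIF14, which acts at the midbody, at 0.16 ± 0.10. KIF18A, which damps chromosome movement, was at 0.15 ± 0.15 with 0.74 in heifer 3 and -0.34 in heifer 2. KIF4A, which binds chromosomes and the midzone, was at 0.08 ± 0.14. Of 11 tested kinesins with a main role in division, 1 fell, 4 lay above 0 and 7 below, and the median was -0.12. This grouping by role was made after the values had been seen.

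KIF1C, a motor that carries vesicles along microtubules, rose at 8 months. Its log2 intensity was 9.42, 9.11, 9.29 and 9.06 at 8 months and 8.58, 8.64, 8.92 and 8.68 at 14 months, with no overlap of the ages. The ratios were 0.83, 0.47, 0.37 and 0.38, a fitted 0.51 ± 0.10 or 1.43-fold (adjusted p = 0.0387 over genes, 0.0543 over probes, so it passed among genes only). No heifer could be left out without losing the call: the ratio of KIF1C was 0.42 without heifer 1, 0.60 without heifer 2, 0.51 without heifer 3 and 0.51 without heifer 4 (adjusted p = 0.0636 to 0.240). Median centring gave 0.30 (adjusted p = 0.115).

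The other cargo motors did not pass. KIF13A, which moves receptors from the Golgi to the cell surface, was at -0.45, -0.21, -0.36 and -0.18 (fitted -0.30 ± 0.10, adjusted p = 0.109 over genes), with a signal over background in 1 of the 4 8-month samples and 3 of the 4 14-month samples. The heavy chain KIF5B of conventional kinesin was at -0.13 ± 0.10, and its light chain KLC1 at -0.26 ± 0.12. KLC2, the other light chain, was at -0.21, 0.10, 1.63 and 0.20, so its fitted 0.43 ± 0.22 rests on heifer 3. KIF3A and KIF3B, the motor subunits that drive transport into cilia, were at 0.00 ± 0.09 and 0.03 ± 0.09. KIF3C, an alternative partner of KIF3A, was at 0.43 in heifer 1 and -0.57 to -0.35 in the others. Of 8 transport kinesins and light chains 1 rose, 3 lay above 0 and 5 below, with a median of -0.06.

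KIF24, which remodels microtubules at the centriole, gave a signal over background in 0 of the 4 8-month samples and 3 of the 4 14-month samples. Its log2 intensity was 7.22, 7.23, 7.43 and 7.11 at 8 months and 7.60, 7.72, 7.73 and 7.17 at 14 months. Measured means were 7.25 and 7.55. With the 8-month signal raised to the weakest detected signal, the mean of KIF24 over the 4 arrays was 1.19-fold lower at 8 months. This bound concerns the measured means only, has no error attached and is not a lower limit for the true difference. The fitted ratio did not pass (limma, adjusted p = 0.116 over probes), and heifer 4 differed little between the ages. For this bound the dim age was set, on each array, to the weakest signal that any detected probe reached, or to that of KIF24 if stronger, and the dye swaps were balanced over the 4 arrays. KIF19, which sets the length of motile cilia, gave a signal over background in 4 of the 4 8-month samples and 1 of the 4 14-month samples, with a ratio of 0.17 ± 0.09. KIF2A, a depolymerase, was at 0.05 ± 0.09 and KIF27, a relative of a fly Hedgehog-pathway kinesin, at -0.12 ± 0.10.

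**Figure D2:**
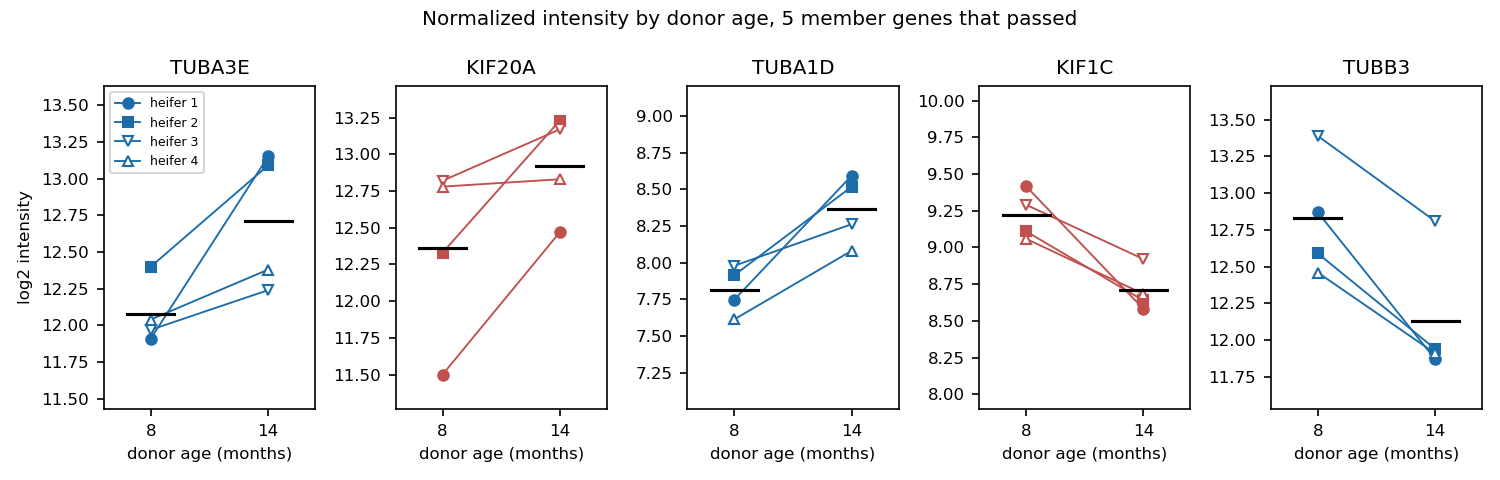
Normalized log2 intensity (vertical axis, which does not start at 0) at 8 and 14 months for the 5 member genes that passed among genes. Marks joined by a line are 1 heifer and black bars are means of 4; all 4 lines fall from 8 to 14 months for KIF1C and TUBB3 and rise for TUBA3E, KIF20A and TUBA1D, with the line of heifer 4 nearly flat for KIF20A.

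Of the dynein and dynactin genes 0 of 13 passed in limma's test, with 5 of 20 probes at an unadjusted p under 0.05. DYNLL1, the light chain that dynein shares with many other complexes, was at 0.74 and 0.65 in heifers 1 and 2 and at 0.08 and -0.10 in heifers 3 and 4. Its fitted ratio of 0.34 ± 0.09 (adjusted p = 0.0888 over probes, 0.0795 over genes) thus came from 1 dye orientation, and median centring turned it to -0.04. The related DYNLL2 was at 0.10 ± 0.13. DYNLRB1, the roadblock light chain, was at -0.69, -0.13, -0.55 and -0.32, lower in every heifer (-0.42 ± 0.12, adjusted p = 0.0764 over genes). A dimmer probe of DYNLRB1 gave -0.17 ± 0.12. The third kind of light chain was at -0.14 ± 0.10 for DYNLT1 and 0.21 ± 0.14 for DYNLT3.

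DYNC1I2, the intermediate chain that binds dynactin, was at -0.18, -0.27, -0.04 and -0.41 (fitted -0.22 ± 0.10, interval -0.47 to 0.02, -0.13 without heifer 4). DYNC1LI1, the light intermediate chain that binds cargo adaptors, was at 0.17, 0.14, -0.04 and 0.20 (0.12 ± 0.10, interval -0.11 to 0.34), at 0.06 without heifer 4 and at -0.22 under median centring. Its 2 other tested probes were at 0.05 and 0.08. DYNC2LI1, of the dynein that returns cargo from cilia, was at -0.22 ± 0.11. The median of the 8 dynein genes was -0.02, with 4 above 0 and 4 below.

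In dynactin, DCTN6, a subunit of the pointed-end complex, was lower at 8 months in every heifer by nearly the same amount, -0.41, -0.52, -0.31 and -0.34 (fitted -0.40 ± 0.09, adjusted p = 0.066 over probes and 0.0555 over genes). It did not pass, except with no filter on dim probes (adjusted p = 0.0468) and under median centring (-0.58, adjusted p = 0.00665). DCTN5, which sits beside DCTN6 in the same complex, had the opposite sign, with 0.27, 0.34, 0.05 and 0.24 (0.23 ± 0.09, adjusted p = 0.183). DCTN1, which binds the microtubule and dynein, and DCTN2, whose excess takes dynactin apart, were at 0.01 ± 0.09 and 0.00 ± 0.09. Both ran from below 0 in heifers 1 and 2 to above 0 in heifers 3 and 4. DCTN3 of the shoulder had 3 tested probes at -0.22, 0.02 and 0.24, so its direction depends on the probe. Of 6 member genes with several tested probes, 2 held probes of both signs, DCTN3 and TUBB2B.

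Ratios were more alike within a dye orientation than across it. Over the 56 member genes the correlation was 0.71 between heifers 1 and 2 and 0.55 between heifers 3 and 4, and 0.20 to 0.38 for the other 4 pairs. Over all 8398 genes it was 0.60 and 0.37 within and -0.05 to 0.18 across. Genes are not independent, and arrays of 1 orientation share the dye of each age. In 12 of 56 member genes heifers 1 and 2 had 1 sign and heifers 3 and 4 the other, beside 18.3% of all genes. DCTN1, DCTN2, TUBA1A, TUBA4A, TUBA8, TUBB2B, TUBGCP2 and TUBGCP3 were among them.

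Of 64 member probes 9 had an unadjusted p under 0.05 for the dye term, and 0 passed (smallest adjusted p = 0.124). Of all probes 3358 and 18 did. The dye and the pair of heifers cannot be told apart. Of the 5 genes that passed for age, KIF20A had a mean ratio of -0.93 in heifers 1 and 2 and -0.20 in heifers 3 and 4, TUBA3E -0.97 and -0.30, and TUBA1D -0.72 and -0.38. TUBB3 had 0.82 and 0.57, and KIF1C 0.65 and 0.37. All 5 had the larger size in heifers 1 and 2. The standard error leaves out this difference between the pairs, which the dye term takes up, and without that term 0 of the 56 genes passed (adjusted p = 0.107 to 0.144 for these 5, 13 genes at an unadjusted p under 0.05). All 5 also lost the call with mean pixel intensities (adjusted p = 0.0793) and with ordinary in place of moderated variance (0.292 to 0.329).

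**Figure D3:**
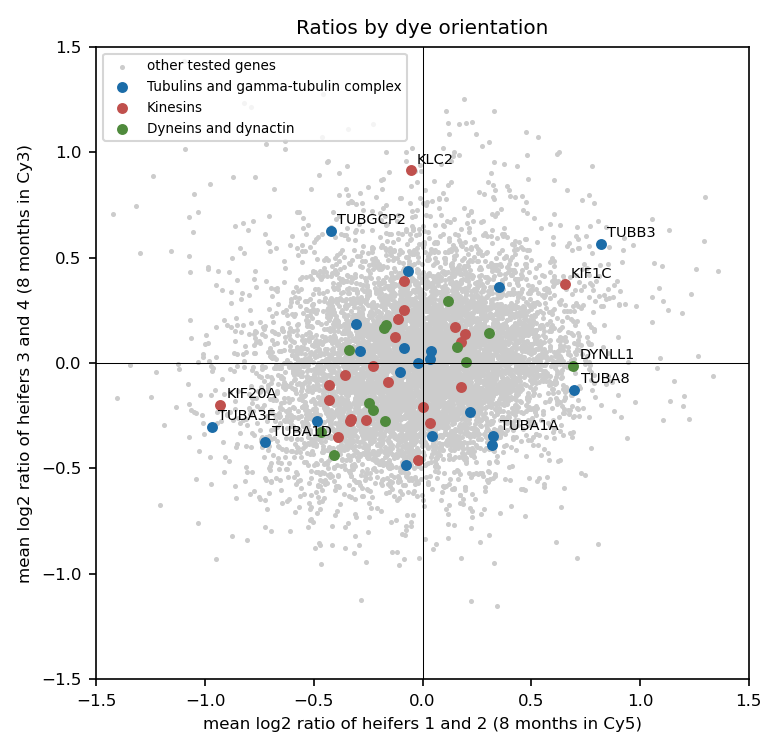
Mean log2 ratio of 8 over 14 months in heifers 3 and 4 (vertical) against heifers 1 and 2 (horizontal) for the tested genes, members in colour and others in grey; 4 genes lie outside the axes. TUBB3 and KIF1C lie in the upper right and TUBA3E, TUBA1D and KIF20A in the lower left, while TUBGCP2, TUBA8, TUBA1A and DYNLL1 lie near or across an axis.

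Genes that work with these proteins were followed in lists of their own. Of 21 tested genes that fold or supply tubulin, 1 rose, 0 fell and the median was 0.07. It was PFDN1, a subunit of the prefoldin chaperone that hands new tubulin to the CCT ring, at 0.53, 0.65, 0.55 and 0.41 (0.54 ± 0.09, adjusted p = 0.0482 over probes and 0.0351 over genes). A dimmer tested probe of PFDN1 was at -0.07 ± 0.10, and the mean of the tested probes did not pass (0.23, adjusted p = 0.164). The PFDN1 call was also lost with mean pixel intensities (adjusted p = 0.0762), without the dye term (0.107), with ordinary variance (0.268) and under median centring (0.17, adjusted p = 0.354). It was kept without heifer 4 (0.57) and lost without heifer 1 (0.57), heifer 2 (0.50) or heifer 3 (0.50). CCT4, a subunit of that ring, was at -0.71, -0.45, -0.63 and -0.09 (-0.47 ± 0.12, adjusted p = 0.0613 over genes), and passed without heifer 4 (-0.61, 0.0403) and under median centring (-0.85, 0.0018). Probes of STMN1 and PFDN2 in this list also differed in sign. STMN1 was at 0.26 ± 0.11 by its brighter probe and -0.65 ± 0.12 by a dimmer one (limma, adjusted p = 0.05001 over probes). PFDN2 was at -0.05 ± 0.11 by its brighter probe and 0.48 ± 0.10 by the other (0.0554).

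Microtubule-associated and plus-end proteins gave 1 gene that rose of 18 tested, 0 that fell and a median of -0.10. This was EML2, which binds microtubules, at 0.84, 0.42, 1.02 and 0.28 (0.64 ± 0.14, adjusted p = 0.0455 over genes and 0.0649 over probes). EML2 kept its call without heifer 4 (0.83) and lost it without heifer 1 (0.54), heifer 2 (0.75) or heifer 3 (0.46). The EML2 call was also lost with no background subtraction (adjusted p = 0.0567), mean pixel intensities (0.107), no dye term (0.113), ordinary variance (0.36), the mean of the gene's probes (0.0562) and median centring (0.34, adjusted p = 0.0822). MAP7D1, a cofactor of conventional kinesin, was at 0.39 ± 0.11.

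Enzymes that modify or sever tubulin had 0 of 14 genes that passed (4 of 16 probes unadjusted) and a median of -0.11. The severing enzyme SPAST was at -0.36 ± 0.10 and its relative FIGNL1 at -0.29 ± 0.09. Of the genes that recruit the gamma-tubulin ring 0 of 7 passed (2 of 7 probes unadjusted, median -0.09). HAUS2 and HAUS6, subunits of the augmin complex that branches spindle microtubules, were at -0.38 ± 0.09 and -0.32 ± 0.11 and below 0 in all 4 heifers; HAUS6 was at -0.20 without heifer 2.

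Dynein adaptors and regulators had 0 of 14 genes that passed (2 of 15 probes unadjusted) and a median of -0.02, with SPDL1, which brings dynein to kinetochores, at -0.34 ± 0.09 and ACTR1A, the filament of dynactin, at -0.32 ± 0.10. Among kinesin genes whose symbols the rule does not take, KIFC1, the minus-end motor of the spindle, was at -0.08, 0.02, 1.21 and 0.62 (0.44 ± 0.12, adjusted p = 0.0693 over genes). It was at 0.29 without heifer 3, and passed without heifer 4 (0.59, adjusted p = 0.0399) and with the authors' ratios (0.47, 0.0405). KIFAP3, the cargo adaptor of KIF3A and KIF3B, was at -0.09, -0.68, -0.27 and -0.51 (-0.39 ± 0.12), and at -0.24 without heifer 2. TUBE1, epsilon-tubulin of the centriole, was at -0.32 ± 0.10, and DNALI1, a light intermediate chain of ciliary dynein, at -0.30 ± 0.10. Neither gene passed, and only 3 of 11 genes in their list were tested.

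**Figure D4:**
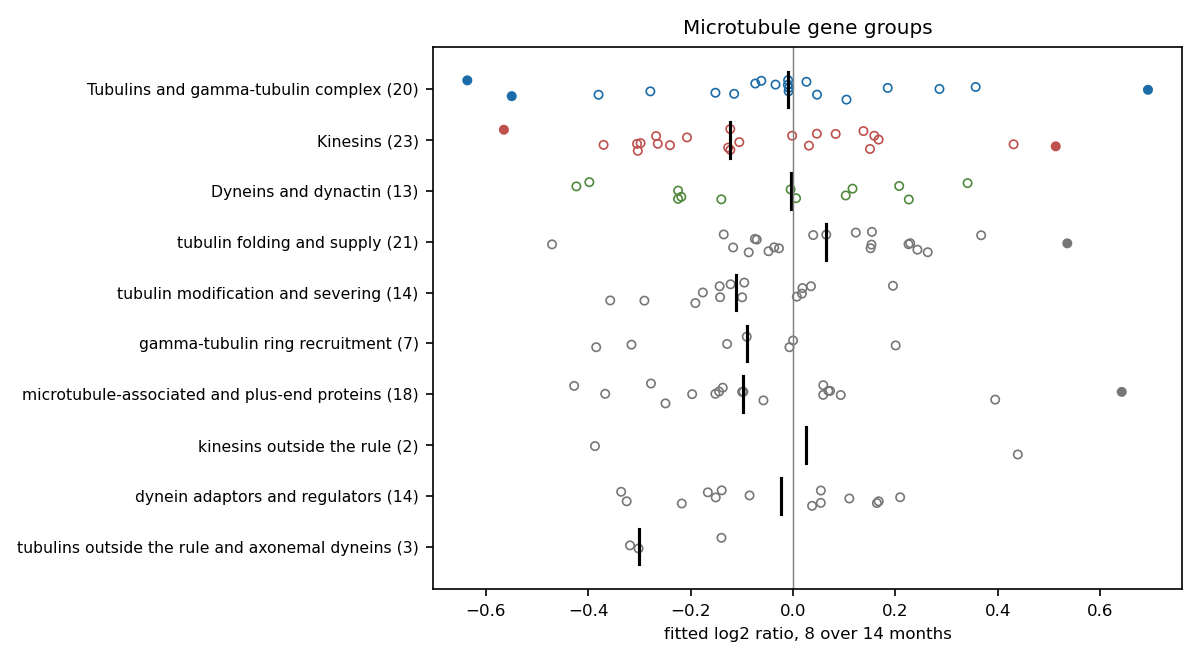
Fitted log2 ratio of 8 over 14 months for each tested gene of the 3 member families and of the 7 lists of partner genes, with the number of tested genes in brackets. Each circle is 1 gene, filled where it passed among genes, and black bars are medians, which lie between -0.30 and 0.07; only the tubulins, the kinesins, the folding genes and the microtubule-associated proteins hold filled circles.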

How the data were processed

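Pooled early blastocysts of 4 heifers were compared on 4 arrays of 2 colours, with RNA amplified in 2 rounds per the labels' protocols. The deposited scanner tables give the foreground and background intensity of each spot, not normalized, per the file headers. The authors also deposited normalized log2 ratios, which served as an alternative; the sources used here do not say how they were made. The authors' ratios were set against the scanner ratios of each array after background correction and loess. Over tested probes brighter than the median (r = 0.991 to 0.999), the column of the value table reads 8 over 14 months. Dimmer probes were left out of this check. The medians over all probes were 0.0036, 0.00028, -0.0014 and 0.0094.

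Median intensities were corrected with normexp (offset 50) and normalized by loess within each array (limma 3.58.1, R 4.3.3), with 1426 control or unnamed spots left out of the tests. A channel was above background at 2 SD over the mean of 153 negative controls. The fit (lmFit, eBayes) held an age coefficient and a dye term, and left 2 residual degrees of freedom. P-values are two-sided and adjusted by Benjamini-Hochberg over all 17685 tested probes or all 8398 genes, each gene by its brightest tested probe. An exact sign test over 4 heifers cannot go below 0.125, so none was used. The heifers are separate animals, and their number limits the precision. The 4 arrays share 1 slide per the file names, so no slide batch could be tested. The fit was checked on simulated data with effects larger than those of any member. That check does not test calls of the size reported here.

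The members and the lists of partner genes and markers were chosen with earlier results of these data known. Members named are those that passed, the 5 with the smallest p and the 3 with the highest intensity per family, and genes above background at 1 age only; of each partner list, genes that passed and the 2 with the smallest p. Other members, markers and second probes were named after their values were seen. Symbols were updated through the RefSeq gene table (assembly ARS-UCD2.0), which served for names and gene order alone. It held 72 of the 74 member symbols, 1 of them as a synonym; TUBB4 and TUBA3D stayed as in the platform annotation. Positions and sequences of the probes are not reported, since their genome build is unknown here. Alternatives were other background corrections, normalizations, pixel summaries, variances and filters, no dye term, the authors' ratios, the mean of a gene's probes and leaving out each heifer.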

Additional observations from a re-analysis of the deposited data

Results flagged for a closer look

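Among 93 genes checked for a heifer that stands apart from the other 3, chance alone would mark about 1 in 20, and 2 were marked. TUBG1, a gamma-tubulin, was at -0.89 in heifer 3 and between -0.13 and -0.01 in the others. HSD3B1, listed here with the granulosa markers, was at 0.56 in heifer 2 and between -1.15 and -1.10 in the others.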

How the results depend on the processing

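With 3 member probes and 5 member genes that passed, the counts turned on the processing. Member probes that passed were 0 with plain background subtraction, with no subtraction, with mean pixel intensities, without the dye term and with ordinary variance (19, 20, 23, 15 and 15 at an unadjusted p under 0.05), and 0 of all probes passed in each of these 5 settings. They were 1 among probes above background in all 8 channels (225 of all probes), 7 with no filter (1013) and 0 to 5 without 1 heifer (0 to 1180). Member genes that passed were 0 with mean pixel intensities, without the dye term and with ordinary variance (20, 13 and 13 unadjusted), where 0 of all genes passed too, and 0 to 3 without 1 heifer (0 to 339 of all genes). Median centring, which moved the median of all genes to -0.18, gave 19 probes and 20 genes, all lower at 8 months, among 3416 of all probes and 2078 of all genes, and medians of -0.28 for tubulins, -0.21 for kinesins and -0.28 for dyneins. Leaving out 1 heifer gave tubulin medians of -0.0615 to -0.0124. Signs turned for TUBA1A (0.0343 with plain subtraction, 0.036 with none, 0.012 with mean pixels, -0.0453 to 0.0263 without 1 heifer), TUBA3D (0.0275 with plain subtraction, 0.028 with none, 0.0336 with the authors' ratios, -0.0593 to 0.0422 without 1 heifer), and under median centring DYNLL1 (-0.0424) and DYNC1LI1 (-0.22). The cause was not tested. The ratio within an array already is the difference paired by heifer, so no further block was fitted. Signal over background limits TUBA1D, KIF24, KIF13A and other dim probes.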

Other observations

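AGBL5, an enzyme that trims tubulin tails, had 2 tested probes. One gave a signal over background in 0 of the 4 8-month samples and 3 of the 4 14-month samples. Its measured mean over the 4 arrays was 1.44-fold lower at 8 months, with no error attached. Raising the 8-month signal to the weakest detected signal did not change this value, so it sets no lower limit. The measured means were 7.36 and 7.89 on the log2 scale (limma, adjusted p of the fitted ratio 0.0748 over probes). The other was above background in 4 of 4 and 2 of 4 samples and had a fitted log2 ratio of 0.20 ± 0.11, with the opposite sign.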
